A study of Mus musculus with 78 samples.

Results

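Heme synthesis was followed through 7 enzyme genes, Alas1, Alad, Uros, Urod, Cpox, Ppox and Fech, in mouse embryonic stem cells (mESCs) from which the transcription factor ZFP143, the mouse counterpart of human ZNF143, had been degraded. The genes were taken by name from the 55401 genes in each of 3 count tables, and all 7 had enough counts to be tested in each table. Their promoters were then searched for peaks in the deposited ZFP143 list. Cpox was a 4C viewpoint of the study and was known to have low nascent transcription after depletion when this set was drawn up, so its values in transient transcriptome sequencing (TT-seq) are given below as a description, without a test. The other 6 genes were taken for their place in the pathway, also with earlier results of these data known.

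All libraries came from clonal E14TG2a mESCs, a male feeder-independent line grown in 2i medium, in which both Zfp143 alleles carried an FKBP12F36V degron with an HA tag and GFP at the C terminus. The controls carried the tag too and received DMSO, whereas 500 nM of the degrader dTAG-V1 was given to deplete ZFP143. TT-seq, in which new RNA was labelled with 4-thiouridine for 10 min, covered DMSO and 2, 6 and 24 h of dTAG-V1. Its control columns are named by a time of 0 h and were taken to be the DMSO samples, the group of that assay whose labels give no time. One RNA-seq experiment had DMSO and depletion for 24, 48 or 72 h. In a second one, cells received DMSO or dTAG-V1 for 24 h and were collected, or were moved from 2i medium into N2B27 medium with retinoic acid (RA) for a further 24 h, with DMSO or dTAG-V1 kept in. RA, the change of medium and the later collection therefore cannot be told apart. The contrasts of one table share their DMSO libraries. Each group held 2 libraries, which the study's methods call biological replicates, and p-values measure the spread between them. Total counts ran from 9721568 to 16532077 in TT-seq, from 10261851 to 15316700 in the RNA-seq time course and from 13890761 to 27089033 in the RA series. The Zfp143 transcript itself, which the degron does not target, was higher by 1.09 to 1.38 on the log2 scale in all 8 contrasts of dTAG-V1 with DMSO.

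Heme is an iron-containing porphyrin that carries oxygen in globins and electrons in cytochromes of the respiratory chain. Its synthesis starts and ends in mitochondria and passes through the cytosol in between. ALAS1, the housekeeping aminolevulinate synthase and rate-limiting enzyme outside the erythroid lineage, joins glycine to succinyl-CoA. ALAD condenses the product to porphobilinogen, UROS closes the ring to uroporphyrinogen III, and UROD removes carboxyl groups from it to give coproporphyrinogen III. CPOX, in the mitochondrial intermembrane space, oxidises coproporphyrinogen III to protoporphyrinogen IX. PPOX oxidises that to protoporphyrin IX, and FECH inserts the iron. The pathway is strongest in red cell precursors, where ALAS2 replaces ALAS1.

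The cells carried the marks of mESCs and not of erythroid cells. The 10 pluripotency markers, among them Pou5f1 and Nanog, summed to 5952 and 6063 CPM (counts scaled to the library total with the trimmed mean of M values, TMM) in the DMSO libraries of the RNA-seq time course. The 13 erythroid markers found in the tables summed to between 2.28 and 10.5 CPM over all libraries of the 3 tables. Alas2, the erythroid synthase, did not pass the filter on low counts in any table.

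The sequence upstream of the gene start is shown for Cpox, the member with the largest change, and for Cldnd1, its neighbour with a ZFP143 peak at the start and the partner viewpoint in 4C. CTACANNTC, read on both strands, is a run of letters from the known ZNF143 binding site and is printed in capitals. These are the 30 bases before each GENCODE gene start, on the plus strand of mm10, at chr16:58670262-58670291 for Cpox and chr16:58727880-58727909 for Cldnd1.

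Cpox: gggaCTACAGTTCccagcagcctcctcggc

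Cldnd1: cttctcctccagtattcCTACAAGTCccac

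The match began 26 bp before the Cpox start and 13 bp before the Cldnd1 start. These letters were searched for after the Cldnd1 sequence had been read. They were present in 4.94% of 54365 windows of 300 bp around GENCODE transcript starts of coding genes (250 bp upstream and 50 bp downstream), and in 32.5% of windows of 300 bp at the summits of the 3189 ZFP143 peaks. No such window of the other 6 members held them. The letters chosen earlier, ACTACAA and CCCANNATG on both strands, were in 3.24% and 5.01% of the 32851 RefSeq promoters of the same length and in 19.3% and 25.7% of the peak windows, and in none of the 9 RefSeq promoters of the 6 members that had one, nor in that of Cldnd1. A match is a description of letters and does not mark a site of binding.

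RefSeq (GRCm38.p6) starts Cpox further upstream than GENCODE, so the 30 bases above lie inside its first RefSeq exon. The 250 bases before the RefSeq start, chr16:58669958-58670207 on the plus strand, held none of the 3 sets of letters. The 250 bases before the start of Cldnd1, chr16:58727660-58727909, ended with the match given above.

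Cpox, RefSeq: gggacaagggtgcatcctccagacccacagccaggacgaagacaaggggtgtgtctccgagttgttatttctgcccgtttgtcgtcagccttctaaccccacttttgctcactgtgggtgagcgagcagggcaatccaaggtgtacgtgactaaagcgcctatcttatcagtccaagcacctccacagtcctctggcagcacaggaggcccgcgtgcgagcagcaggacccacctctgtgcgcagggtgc

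Cldnd1, RefSeq: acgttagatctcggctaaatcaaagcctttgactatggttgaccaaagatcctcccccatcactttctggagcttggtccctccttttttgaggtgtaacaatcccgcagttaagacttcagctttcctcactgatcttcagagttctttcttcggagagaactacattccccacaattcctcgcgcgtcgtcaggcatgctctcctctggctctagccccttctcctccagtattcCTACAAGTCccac

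Apart from Cpox, for which the list may be incomplete, none of the 6 other members had a ZFP143 peak at its promoter in the list analysed here, with promoters taken from 2000 bp upstream to 1000 bp downstream of a transcript start and the peak centre within 2000 bp. Among the 14901 genes tested in TT-seq with an annotated start, 14.8% had one. That count stayed at 0 with the centre within 500 or 5000 bp and with peaks of at least 10-fold enrichment over input. The nearest peak to the Cpox start lay 57.7 kb downstream, at chr16:58727623-58728360, with 53.5-fold enrichment, and spanned the start of Cldnd1. The peak numbers in the list are not continuous. They skip 124 numbers in all, and 2 of these fall between the peaks that flank the Cpox start, 1439 kb upstream and 57.7 kb downstream, against 0 for each of the other members. A peak called near Cpox may therefore be absent from the list used here, and nothing is read from it about ZFP143 binding at Cpox itself. The study chose Cpox as a 4C viewpoint because it took the promoter to be occupied by ZFP143 and the gene to fall soon after depletion. It also required a loop at the promoter in a published map of chromatin contacts (Micro-C). The nearest peak lay 5286 bp from a start of Alad, 32.4 kb from Alas1, 50.2 kb from Uros, 85.1 kb from Fech, 126 kb from Urod and 222 kb from Ppox. A CTCF peak stood at the promoter of Ppox alone among the members, 654 bp from its start, against 19.0% of the same genes.

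In DMSO the members differed in level along the pathway. Per kilobase of merged exons in the RNA-seq time course, Urod was highest at 28.2 CPM and Alad was next at 20.5 CPM. Cpox followed at 7.45 CPM per kilobase, and Ppox and Alas1, at 6.00 and 5.78 CPM per kilobase, overlapped between libraries. Fech stood at 2.7 and Uros at 1.53 CPM per kilobase. In TT-seq, per kilobase of the whole gene span, Alad and Urod led at 1.87 and 1.83 CPM and overlapped between libraries. Alas1 and Ppox, at 1.1 and 1.05 CPM per kilobase, also overlapped, followed by Fech at 0.856, Uros at 0.549 and Cpox at 0.335 CPM per kilobase. Cpox thus held the lowest nascent level of the 7 and the third highest transcript level in the time course, each on its own length scale. In the DMSO libraries of the RA series collected before RA, Cpox, at 6.78 CPM per kilobase of exon, came after Alas1, at 6.94 CPM per kilobase, and overlapped it. Over the longest transcript the order was reversed, with 14.6 CPM per kilobase for Cpox and 12.6 CPM per kilobase for Alas1.

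Cpox was the member with the greatest change. In TT-seq its level was 15.4 and 16.3 CPM in the DMSO libraries, from 149 and 215 counts. After 2 h of dTAG-V1 it was 1.99 and 2.22 CPM, after 6 h 2.25 and 0.989 CPM, and after 24 h 1.37 and 2.5 CPM, from 12 to 37 counts. Every depleted library lay below both DMSO libraries, and the 3 times overlapped. The log2 change was -2.90 ± 0.38 (SE, n = 2 libraries per group) at 2 h, -3.27 ± 0.40 at 6 h and -3.0 ± 0.39 at 24 h. Nascent Cpox stood at 13.3%, 10.2% and 12.2% of its DMSO level. In bulk libraries fewer cells of a type and less RNA per cell cannot be told apart.

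The steady-state transcript of Cpox fell with it. RNA-seq gave 49.1 and 50.1 CPM in DMSO, 5.48 and 4.92 CPM at 24 h, 3.75 and 6.40 CPM at 48 h, and 3.97 and 5.03 CPM at 72 h. The depleted libraries were all far below the controls and overlapped among the 3 times. The log2 change was -3.25 ± 0.14 at 24 h (edgeR glmTreat against a fold of 1.5, adjusted p = 8.02e-16), -3.30 ± 0.14 at 48 h (adjusted p = 2.04e-16) and -3.44 ± 0.14 at 72 h (adjusted p = 3.96e-17). Between 24 and 72 h the change was -0.19 ± 0.21 (adjusted p = 1). Low nascent transcription of Cpox was known when the set was drawn up. The p-values and calls of its depletion contrasts, here and in the RA series, are therefore not read as independent support. Cpox overlaps Gpr15 on the opposite strand over 204 exonic bases, and the strand setting of the RNA-seq counting is not given in the sources used here.

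**Figure D1:**
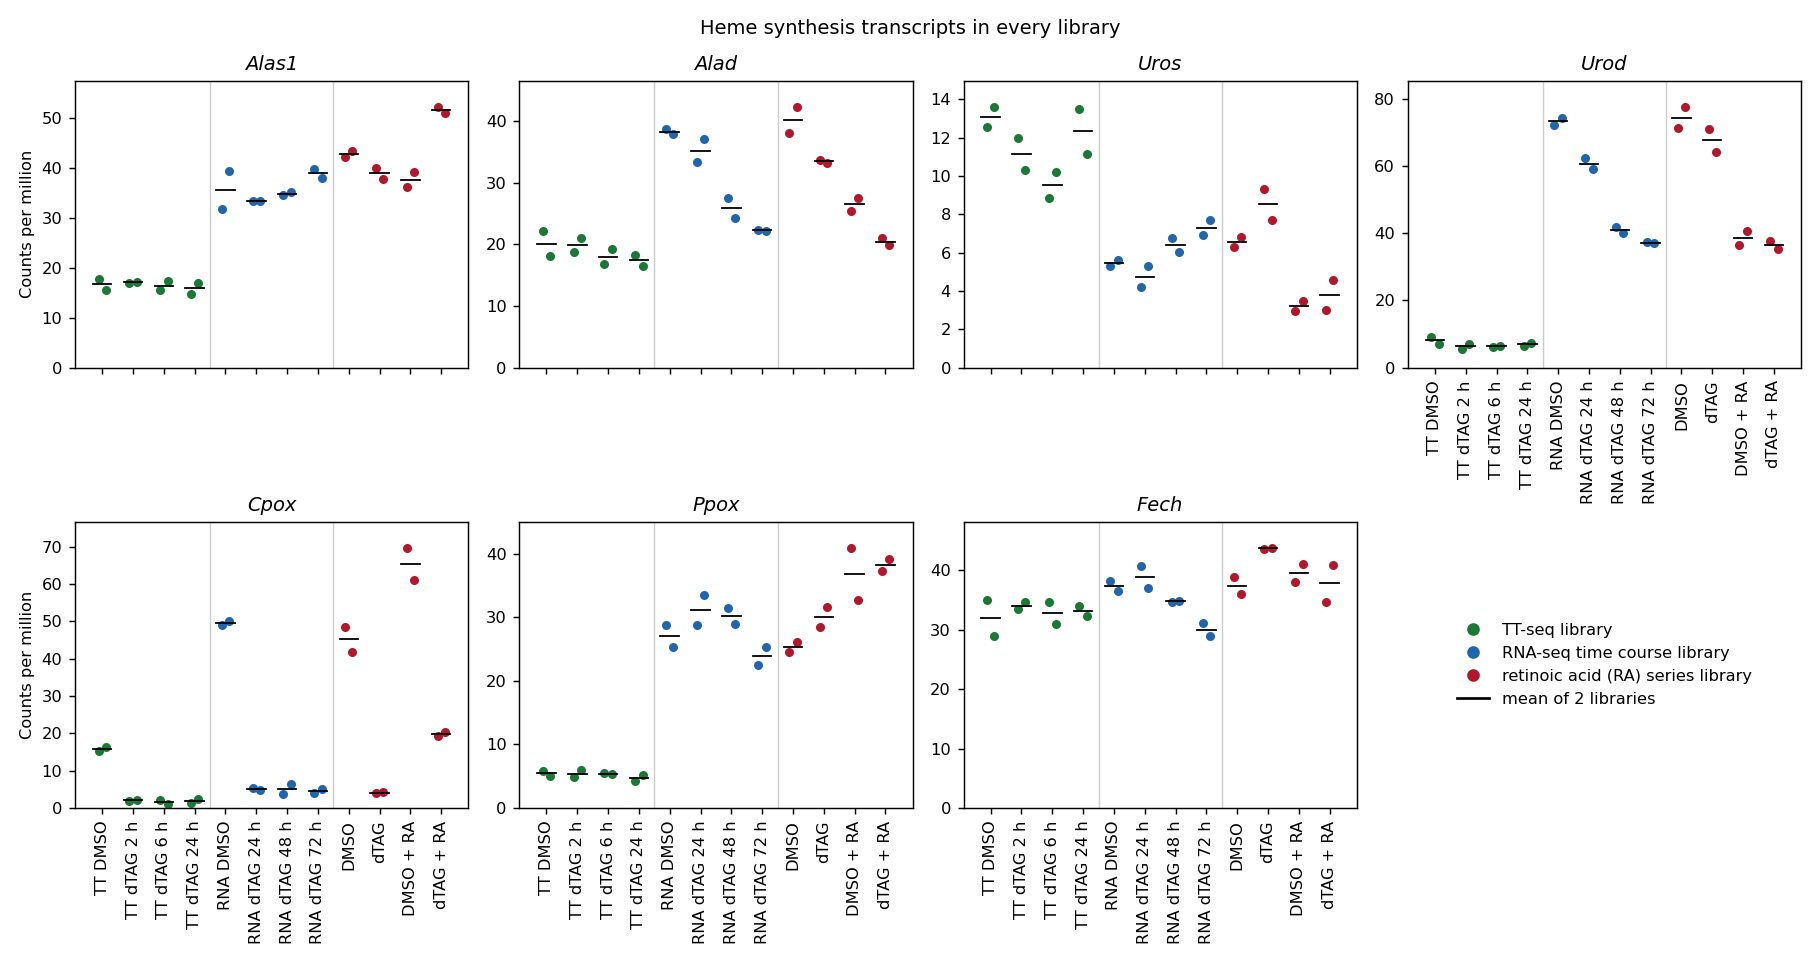
CPM of the 7 heme synthesis genes in each TT-seq, RNA-seq time course and RA series library, 1 panel per gene with its own linear axis from 0; points are libraries and bars the mean of 2. Cpox drops in every depleted library, Urod lies at 37.0 and 37.4 CPM and Alad at 22.1 and 22.4 CPM in the 72 h libraries, and Ppox and Fech stay between 22.5 and 40.7 CPM over the whole time course.

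The other members of the pathway did not pass the test in TT-seq at any time. Of these 6, 0 were called lower (a log2 change beyond 0.5 in size with an adjusted p under 0.05) at 2, 6 and 24 h, against 2.43%, 2.83% and 4.09% of the 17870 tested genes. None of the 6 was called higher, against 0.168%, 0.397% and 2.02% of all genes. These shares are from the fit without the replicate number, in which 435, 506 and 730 genes were lower and 30, 71 and 361 higher. With the replicate number as a block the genes called lower were 662, 956 and 1214 and those called higher 87, 359 and 1009, and the 6 members were still not called. For the remaining 6, the log2 change lay between -0.46 and 0.09 over the 3 times. Urod, the decarboxylase just before CPOX in the pathway, had the lowest value at 2 h, -0.37 ± 0.24 (adjusted p = 0.629), with 9.18 and 7.07 CPM in DMSO and 5.56 and 6.97 CPM at 2 h. Uros, the ring-closing synthase, had the lowest at 6 h, -0.46 ± 0.21 (adjusted p = 0.295), with 12.6 and 13.6 CPM in DMSO and 8.86 and 10.2 CPM at 6 h. Alas1, the rate-limiting synthase, gave 0.03 ± 0.17, -0.03 ± 0.17 and -0.07 ± 0.18 at the 3 times. A change of the size seen in Cpox was far outside these standard errors, whereas a change of the size of a standard error could not be resolved in TT-seq.

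In RNA-seq, Urod was called lower at 48 and 72 h. It stood at 72.1 and 74.3 CPM in DMSO, 62.2 and 59.1 CPM at 24 h, 41.8 and 39.98 CPM at 48 h and 37.4 and 37.0 CPM at 72 h. No depleted library reached a DMSO library, and the 3 times did not overlap. The log2 change was -0.27 ± 0.06 at 24 h (adjusted p = 1 against a fold of 1.5), -0.84 ± 0.07 at 48 h (adjusted p = 5.23e-04) and -0.98 ± 0.07 at 72 h (adjusted p = 1.86e-06). The call at 48 h was lost with library size scaling (-0.64), with DESeq2 (-0.85, adjusted p = 0.0468) and without replicate 2 at 48 h (-0.80, adjusted p = 0.0123), whereas that at 72 h was kept in all of these. The difference between 72 and 24 h, -0.71 ± 0.07, did not pass (adjusted p = 0.0689), and 0 members were called between these times, where 6.6% of all genes were lower and 7.53% higher at 72 h.

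Alad, the porphobilinogen synthase, gave the same order of values without passing the test. It was 38.8 and 37.9 CPM in DMSO, 33.3 and 37.1 CPM at 24 h, 27.5 and 24.3 CPM at 48 h and 22.4 and 22.1 CPM at 72 h. Its libraries at 48 and 72 h lay below both controls. The log2 change was -0.56 ± 0.09 at 48 h (adjusted p = 0.88) and -0.78 ± 0.09 at 72 h (adjusted p = 0.0145, with 0.01 required). With the DMSO and 72 h groups fitted alone, it passed at 72 h (-0.80, adjusted p = 0.0081).

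The remaining 4 members were called at no time in RNA-seq. Uros, low in every library, was 5.32 and 5.62 CPM in DMSO and 6.92 and 7.69 CPM at 72 h, a log2 change of 0.42 ± 0.17 (adjusted p = 1). Alas1 was 31.9 and 39.5 CPM in DMSO and 39.9 and 38.0 CPM at 72 h, a log2 change of 0.11 ± 0.09, and the groups overlapped. Fech, the ferrochelatase, was 38.2 and 36.6 CPM in DMSO and 31.1 and 29.0 CPM at 72 h, a log2 change of -0.32 ± 0.08 (adjusted p = 1). Ppox, which overlaps B4galt3 on the opposite strand over 791 exonic bases, ranged from 22.5 to 33.6 CPM over the 8 libraries. In all, 1 of 7 members was called lower after 24 h, and 2 of 7 were at each later time, with Cpox among them each time and 0 called higher. Over the 13925 tested genes, 3.41%, 7.71% and 12% were called lower and 2.32%, 10.5% and 13.7% higher at these times. The median log2 change of the members was -0.12, -0.10 and -0.32, against 0.02, 0.01 and 0.02 over all genes tested. The 10 pluripotency markers moved over the same course, from 5952 and 6063 CPM in sum in DMSO to 4029 and 4086 CPM at 72 h. The 6 endoderm markers summed to 5.87 and 6.19 CPM in DMSO and 13.1 and 13.8 CPM at 72 h, and the 6 neural markers to 217 and 226 CPM and then 135 and 143 CPM. The neural markers did not move together. At 72 h Nes and Tubb3 were called lower, with -0.75 and -0.78, whereas Sox1 was called higher, by 2.27. The part of these markers in the changes of the members was not tested.

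**Figure D2:**
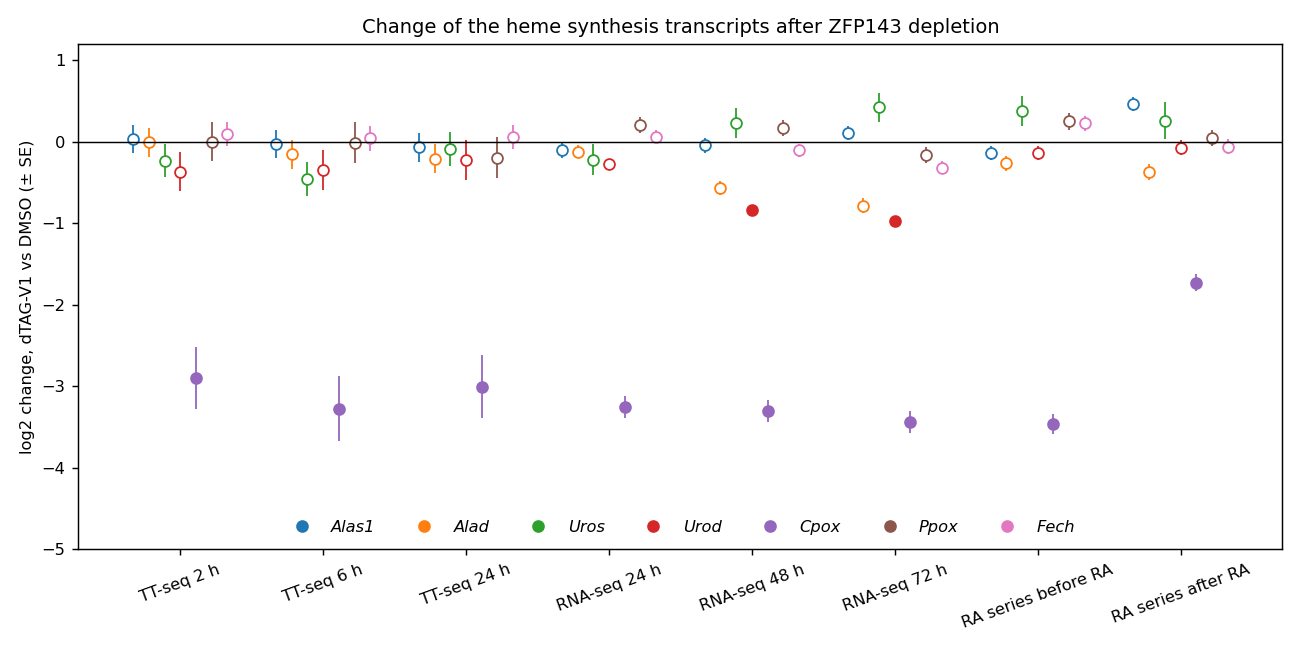
Log2 change of each heme synthesis gene between dTAG-V1 and DMSO in the 8 contrasts, with SE; filled points passed the thresholds of their contrast, and no test is read for Cpox in TT-seq. Cpox sits between -2.90 and -3.46 in the 7 contrasts without RA and at -1.73 after RA, and Urod passes at 48 and 72 h.

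The RA series repeated the 24 h depletion in separate libraries and then asked what the pathway did after RA. Before RA, Cpox was 48.5 and 41.9 CPM in DMSO and 3.89 and 4.26 CPM in dTAG-V1, a log2 change of -3.46 ± 0.13 (adjusted p = 4.03e-14), or 9.03% of control. Of the 7 members, Cpox was called lower and 0 were called higher, against 3.66% and 2.74% of the 15915 tested genes. The other 6 ranged from -0.26 for Alad to 0.37 for Uros.

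After RA, Cpox was 69.8 and 61.2 CPM in DMSO and 19.3 and 20.3 CPM in dTAG-V1. The depleted libraries remained below the controls but lay above every depleted library without RA. The log2 change between dTAG-V1 and DMSO was -1.73 ± 0.10 (adjusted p = 9.11e-10), or 30.2% of control. Here too Cpox was the 1 member called lower and 0 were called higher, against 7.36% and 9.1% of all genes. With RA, Cpox changed by 0.54 ± 0.09 in DMSO (adjusted p = 0.634; 0.86 and called with library size scaling, adjusted p = 0.00278) and by 2.27 ± 0.13 in depleted cells (adjusted p = 6.29e-11). The difference between these responses, the RA by depletion interaction, was 1.73 ± 0.17 on the log2 scale (edgeR quasi-likelihood test, adjusted p = 5.41e-08).

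Alas1 was the other member whose RA response differed between depleted and control cells. It was 42.3 and 43.5 CPM in DMSO, 40.1 and 37.9 CPM in dTAG-V1, 36.1 and 39.2 CPM in DMSO with RA and 52.3 and 51.1 CPM in dTAG-V1 with RA. The depleted libraries with RA lay above all others. The interaction was 0.60 ± 0.12 (adjusted p = 3.60e-04), whereas the single contrasts did not pass against a fold of 1.5, with 0.46 ± 0.08 for dTAG-V1 against DMSO after RA (adjusted p = 1) and 0.41 ± 0.08 for RA in depleted cells (adjusted p = 1). With library size scaling the latter was 0.80 and called (adjusted p = 0.00387), and the change with RA in DMSO turned from -0.19 to 0.13, not called in either. Tested against a fold of 1.5, the interaction had an adjusted p of 0.632. Thus 2 of 7 members were called higher in the interaction and 0 lower, against 13.7% and 18% of all genes. The remaining 5 lay between -0.28 for Fech (adjusted p = 0.0899) and 0.07 for Urod. The pluripotency markers summed to 694 and 1059 CPM in DMSO with RA and to 1323 and 1560 CPM in dTAG-V1 with RA; the 6 neural markers summed to 240 and 279 CPM in DMSO with RA and to 76.3 and 77.0 CPM in dTAG-V1 with RA. The endoderm markers summed to 26.6 and 27.4 CPM in DMSO with RA and to 48.3 and 49.6 CPM in dTAG-V1 with RA. The part of these shifts in the interaction was not tested.

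Urod was lower with RA in both backgrounds. It went from 71.3 and 77.5 to 36.5 and 40.7 CPM in DMSO, a log2 change of -0.95 ± 0.09 (adjusted p = 1.22e-04), and from 71.1 and 64.1 to 37.7 and 35.3 CPM in dTAG-V1, a change of -0.88 ± 0.09 (adjusted p = 6.58e-04). In depleted cells Uros fell from 9.34 and 7.72 to 3.0 and 4.55 CPM, a change of -1.16 ± 0.19 (adjusted p = 0.0020), whereas in DMSO the change of -1.04 ± 0.21 did not pass (adjusted p = 0.013). These calls were lost with library size scaling (-0.63 and -0.49 for Urod in DMSO and dTAG-V1, -0.77 for Uros in dTAG-V1), and those in dTAG-V1 also with DESeq2. Without replicate 1 of DMSO with RA, Urod was not called in DMSO (-0.82). In dTAG-V1, leaving out replicate 1 before RA ended both calls (-0.82 for Urod and -1.04 for Uros), leaving out replicate 1 after RA ended that of Uros (-0.81), and leaving out replicate 2 after RA ended that of Urod (-0.75). With RA, 1 of 7 members was called lower in DMSO and 2 in dTAG-V1, against 18.1% and 18.5% of all genes, and 0 and 1 were called higher, against 25.8% and 25%. Uros shares its start region with Bccip, whose transcript starts 52 bp away on the opposite strand and which also fell with RA, by 0.97 and 1.24 on the log2 scale. Urod starts 904 bp from Hectd3, a ubiquitin ligase gene, which was called in no contrast with RA.

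Cldnd1, the gene downstream of Cpox that encodes a claudin domain protein, changed alongside it. Its TT-seq level was 7.01 and 8.59 CPM in DMSO, 1.91 and 2.04 CPM at 2 h, 1.63 and 1.48 CPM at 6 h and 1.37 and 1.67 CPM at 24 h. Its RNA-seq level was 44.6 and 46.4 CPM in DMSO and 7.89 and 9.10 CPM at 24 h, a log2 change of -2.43 ± 0.11 (adjusted p = 1.39e-14), and 11.2 and 13.5 CPM at 72 h, a change of -1.87 ± 0.10 (adjusted p = 7.24e-13). In the RA series it changed by -2.67 ± 0.12 before and -1.1 ± 0.10 after RA, with an interaction of 1.58 ± 0.16 (adjusted p = 1.08e-07). Both genes were thus lower in all depleted libraries, and both had a smaller difference after RA.

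**Figure D3:**
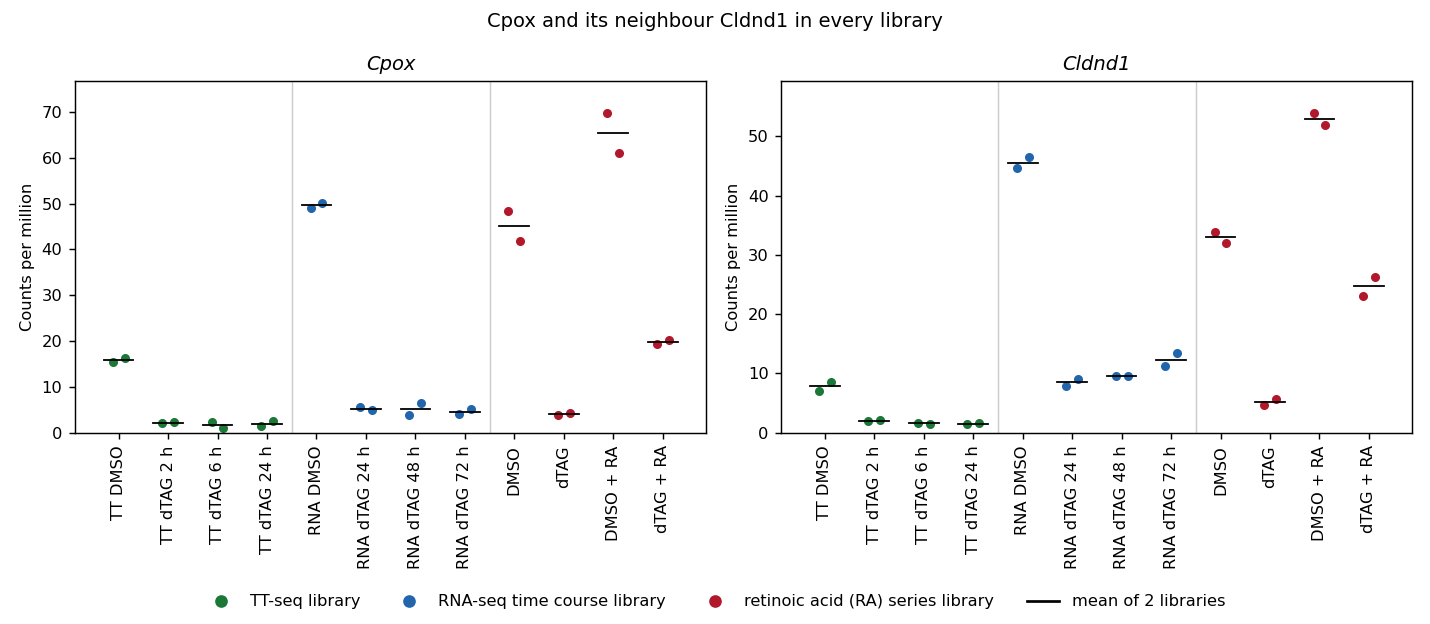
CPM of Cpox and Cldnd1 in each library, with points for libraries and bars for the mean of 2, on linear axes from 0. In both panels each depleted library lies below its controls, and the depleted libraries with RA lie above those without.

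Circular chromosome conformation capture (4C) recorded contacts from viewpoints at Cpox and at Cldnd1, the latter labelled Cldn1 but lying at Cldnd1. Values are RPM, in which the counted reads of each library set the scale, summed over restriction fragments within 10 kb of the start of the other gene. From Cpox, the Cldnd1 window held 20069 and 17339 RPM in DMSO and 15546.5 and 14245 RPM after 6 h of dTAG-V1, a ratio of means of 0.796. From Cldnd1, the Cpox window held 24289 and 25153 RPM in DMSO and 18798.5 and 19282.5 RPM after dTAG-V1, a ratio of 0.770. From either side both depleted libraries were below both controls. Windows of 5 kb gave ratios of 0.746 and 0.749, and windows of 20 kb 0.799 and 0.783. At the same distance on the other side of the viewpoint the ratios were 0.913 and 0.914, and there the conditions overlapped from both viewpoints. As a share of the contacts from 10 kb to 1 Mb of the viewpoint, the ratios were 0.829 and 0.797. Bins of 5 kb outside the window could separate too. At 37.5 kb from Cpox the depleted libraries held 441 and 522 RPM per fragment, below 608 and 779 in DMSO. At -97.5 kb they held 165 and 79.7, above 73.0 and 78.7 in DMSO. The 4 libraries of 1 viewpoint cannot give an exact permutation p below 0.33. The study described the 4C profiles of its tested promoters as mostly unaffected by depletion. It also detected no fall in loop strength across the genome.

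Whole read numbers could be recovered from the RPM values, with 100% of the values above 0 within 0.02 reads of a whole number, and the Cpox and Cldnd1 libraries held between 310261 and 440099 reads. In a count test chosen after seeing the data, which compared 101 bins of 20 kb from 10 kb to 1 Mb of the viewpoint, the log2 change of the partner window was -0.33 ± 0.09 from Cpox (edgeR quasi-likelihood test, adjusted p = 0.0274) and -0.38 ± 0.08 from Cldnd1 (adjusted p = 2.25e-04). Of the bins, 2.97% and 1.98% were called in all, the partner windows among them, and the median over all bins was 0.03 and 0.05. The reads are PCR copies without molecular identifiers. Contact within the window is a measurement on 2 libraries per condition and is set beside the transcript levels here without a link between them.

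**Figure D4:**
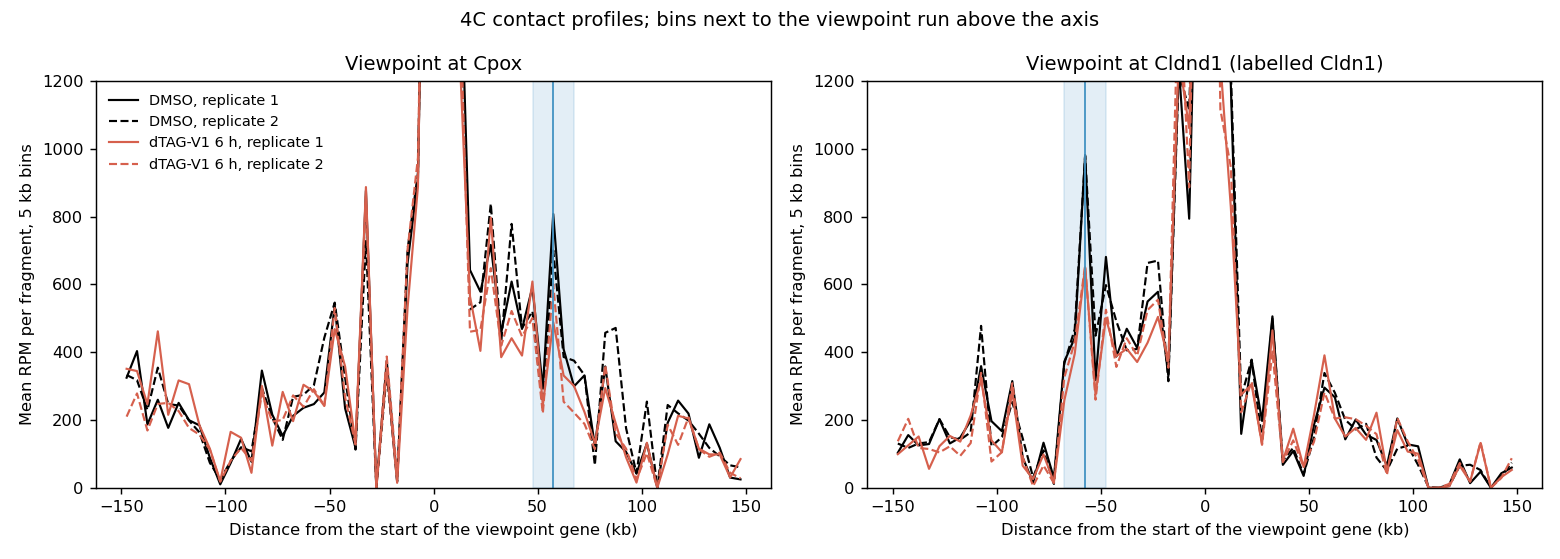
Mean RPM per restriction fragment in bins of 5 kb against distance from the start of the viewpoint gene, for 2 DMSO and 2 dTAG-V1 libraries of each viewpoint; the shaded band is the window of 10 kb on either side of the partner gene's start, and bins next to the viewpoint run above the axis. In the bin that holds the partner gene's start both dTAG-V1 lines lie below both DMSO lines. From Cpox they are at 489 and 601 against 808 and 700 RPM per fragment, and from Cldnd1 at 650 and 655 against 982 and 979. The same holds from Cpox at 62.5 kb, with 331 and 254 against 409 and 386, while its lines overlap in the other bins of the band. From Cldnd1 it holds throughout the band.

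The genes whose 8 log2 changes between dTAG-V1 and DMSO were nearest to those of Cpox, out of 12811 genes tested in all 3 tables, were Gtf2h4, a subunit of the transcription factor TFIIH, Iqgap3, a scaffold protein of cell division, Kctd17, 2210016L21Rik and Cox7c, a subunit of cytochrome c oxidase. Their root mean square differences from Cpox were 0.33, 0.37, 0.43, 0.45 and 0.47 on the log2 scale. Gtf2h4, for example, ran from -2.41 at 2 h of TT-seq to -4.09 at 72 h of RNA-seq and stood at -1.77 after RA. All 5 had a ZFP143 peak at the promoter. Of all genes called lower in TT-seq, 87.6% of 435 at 2 h, 80.6% of 506 at 6 h and 67.9% of 730 at 24 h had one too. Each of the 5 had its smallest fall after RA. The list was chosen on these contrasts and describes them.

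**Figure D5:**
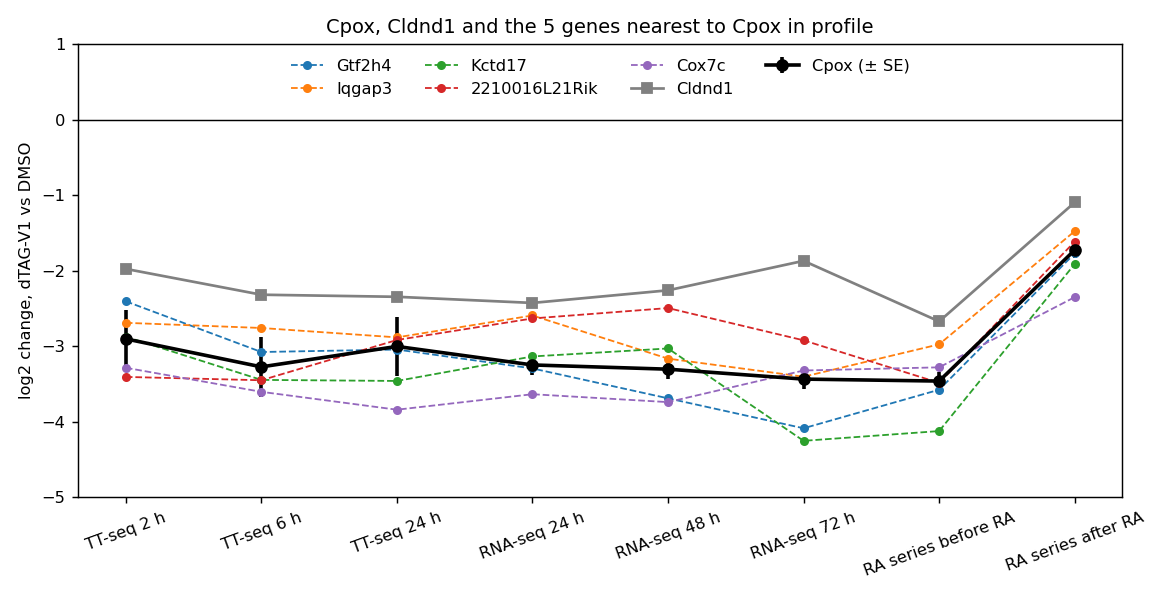
Log2 change between dTAG-V1 and DMSO in the 8 contrasts for Cpox (with SE), Cldnd1 and the 5 genes nearest to Cpox by root mean square difference; lines join contrasts for reading only. Every line is highest after RA, where Cpox stands at -1.73.

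Of 15 genes of heme and porphyrin transport, 0 were called in TT-seq at 2, 6 or 24 h, where 2.43%, 2.83% and 4.09% of all genes were lower and 0.168%, 0.397% and 2.02% higher. In RNA-seq, Flvcr2, a membrane transporter of the FLVCR family, was the 1 gene of the 15 called higher in the 48 h and 72 h libraries, by 2.14 and 2.63, against 10.5% and 13.7% of all genes. It was also higher in depleted than in control cells after RA, by 1.70.

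Of the 4 genes of heme breakdown, 0 were called in TT-seq or after 24 h of RNA-seq. At 48 h 1 was lower and 1 higher, and at 72 h 2 were lower and 1 higher, against 7.71% and 10.5% of all genes at 48 h and 12% and 13.7% at 72 h. Hmox1, the inducible heme oxygenase that opens the heme ring, was higher by 1.28 at 48 h and by 1.93 at 72 h. Blvrb, a biliverdin reductase, had log2 changes of -0.86 and -1.33, and Blvra, the other one, had -1.18 at 72 h, each called lower. After RA, Hmox1 was higher by 2.12 in depleted than in control cells, where it changed with RA by -1.52 in DMSO and 0.75 in dTAG-V1. The 3 genes of heme A synthesis and cytochrome c attachment were called in none of the 8 contrasts.

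Of 12 tested genes of iron uptake and storage, 0 were called in TT-seq, with the same shares of all genes as above. Slc40a1, the iron exporter ferroportin, was the 1 gene of the list called in the RNA-seq time course, higher by 2.18, 2.69 and 2.64 in order of time, against 2.32%, 10.5% and 13.7% of all genes called higher. It started from a low level, with 0.733 and 1.14 CPM in the DMSO libraries of that course. Between depleted and control cells after RA, 1 gene was higher and 1 lower, against 9.1% and 7.36% of all genes. Tfrc, the transferrin receptor through which cells take up iron, was higher by 3.11 in depleted cells after RA, where it changed with RA by -3.03 in DMSO and 0.02 in dTAG-V1. Steap3, a ferrireductase, was lower in depleted than in control cells after RA, with -1.59, where it changed with RA by 3.27 in DMSO and 1.12 in dTAG-V1. Of the 10 tested genes of heme sensing, Bach2, a heme-binding repressor, was higher by 1.47 and 2.07 in the 48 h and 72 h libraries. Bach2 was low in DMSO, at 0.917 and 1.78 CPM. With each library left out its change ran from 1.12 to 2.06 at 48 h and from 1.72 to 2.67 at 72 h. Nr1d1, a heme-binding nuclear receptor, was lower with depletion before RA, with -1.25, whereas the time course gave -0.50 at the same 24 h (adjusted p = 1). Nfe2l2, a stress-response activator, was higher by 0.84 in depleted than in control cells after RA, where it changed with RA by -0.93 in DMSO and 0.38 in dTAG-V1.

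Of 23 genes of iron-sulfur cluster assembly tested in TT-seq and 22 tested in RNA-seq, Ciao2a, a factor of the cytosolic assembly, was called lower in all 8 contrasts of dTAG-V1 with DMSO, with log2 changes from -0.98 to -2.41. It was the 1 gene of the list called lower in each of these contrasts other than that at 72 h, while between 2.43% and 12% of all genes were called lower over the 8 contrasts, and between 0.168% and 13.7% higher. Hspa9, a mitochondrial chaperone named after its values were seen, was called higher at 24 h of TT-seq and at 48 h of RNA-seq. Nubpl, an assembly factor of respiratory complex I, was lower at 72 h with -1.09. Nfu1, a mitochondrial iron-sulfur carrier, was higher by 1.03 at 48 h, by 0.85 at 72 h and by 0.87 in depleted than in control cells after RA. In the 72 h libraries 2 of the 22 were lower and 1 was higher, against 12% and 13.7% of all genes. The lists were drawn up with earlier results of these data known, and nothing is read from their counts beyond these values.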

How the data were processed

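The authors mapped TT-seq and RNA-seq reads to mm10 with STAR and deposited raw read counts per gene of GENCODE vM25. TT-seq was deduplicated, split by strand and counted over whole genes with htseq-count, and RNA-seq was counted by STAR. The 4C values deposited by the authors are RPM per restriction fragment. The deposited ZFP143 list holds the fold enrichment over input (a ratio), the −log10 of q and a score from MACS2, as 1 list without replicates. The CTCF list gives positions.

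Genes with over 10 counts in at least 4 of 8 libraries were tested with edgeR 4.0.16 (TMM, quasi-likelihood), each table as 1 fit of 4 groups of 2. For TT-seq and the interaction a call needed a log2 change beyond 0.5 in size with an adjusted p under 0.05, and for other RNA-seq contrasts it needed an adjusted p under 0.01 from glmTreat against a fold of 1.5 (Benjamini-Hochberg, over all genes tested). SE is the absolute log2 change over the square root of F. The scripts were tested on simulated data.

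The members and lists were chosen with earlier results of these data known. Named are the members, Zfp143, Cldnd1, promoter partners, up to 3 called genes per related list, those with the greatest change between dTAG-V1 and DMSO, and the 5 genes nearest to Cpox. One gene that this rule names is not reported here. Symbols and positions are from GENCODE vM21, in which 55141 of 55401 identifiers were found without version. Alternatives were library size scaling, no filter, DESeq2 1.42.0, the thresholds of the other assay, a replicate block, fewer groups, each library left out, and other peak and 4C windows. In TT-seq, libraries with the same replicate number deviated together (correlations of 0.205 to 0.652 over all 6 pairs of groups), so the numbers pair the libraries. The values given are from the fit without the block, and the replicate block changed no call of a member. The study's methods used DESeq2 and state neither a block nor its absence. Hi-C, ATAC-seq and signal tracks were not used here. No library was identical to another.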

Additional observations from a re-analysis of the deposited data

Results flagged for a closer look

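For Cpox and Alas1 the response to RA differed between depleted and control cells. For Cpox the RA response in dTAG-V1 minus that in DMSO was 1.73 on the log2 scale, and for Alas1 it was 0.60, each from the interaction term of the edgeR fit over 2 libraries per group. For Cpox all 4 libraries with RA lay above all libraries of the same treatment without it. For Alas1 both depleted libraries with RA lay above both without, and both DMSO libraries with RA lay below both without. These positions are after TMM scaling: with library size scaling the change of Alas1 with RA was 0.13 in DMSO, against -0.19, and 0.80 in dTAG-V1, which was then called (adjusted p = 0.00387), against 0.41. Tested against a fold of 1.5, the interaction of Alas1 did not pass (adjusted p = 0.632). RA cannot be told apart from the change of medium and the longer depletion.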

How the results depend on the processing

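Over 1358 alternative fits of member values, 1326 kept their side of the threshold, 17 lost a call and 15 gained one. No called value changed sign, and 46 of the values that were called in neither fit did. At 2 h of TT-seq the member past the thresholds was Cpox, for which no test is read. That count went from 1 to 0 with the RNA-seq thresholds and to between 0 and 1 with each library left out (0 without either library of 2 h, with Cpox at -2.83 and -2.98). At 48 h of RNA-seq the 2 called lower became 1 with library size scaling and with DESeq2, and 1 to 2 with a library left out (1 without replicate 2 at 48 h). With the TT-seq thresholds Alad joined those called lower at 48 h, at 72 h and with RA in dTAG-V1, giving 3 each, and it did so at 72 h with only the groups compared, also giving 3. With the TT-seq thresholds, 2 members were lower and 1 higher between 72 and 24 h, against 0 and 0. With RA in DMSO, the 1 member lower became 0 with library size scaling, 2 without a filter, 3 with the TT-seq thresholds and 0 to 1 with a library left out, and the 0 higher became 2, Cpox and Ppox, with library size scaling and with the TT-seq thresholds. With RA in dTAG-V1, the 2 lower became 0 with library size scaling, 0 with DESeq2 and 0 to 2 with a library left out, and the 1 higher became 2 with library size scaling, which added Alas1. The 2 members higher in the interaction became 1 when it was tested against a fold of 1.5. The cause of these changes was not tested, except that library size scaling moved the median of all genes by 0.0736 to 0.392 on the log2 scale in the 9 contrasts of the RNA-seq tables. The replicate block left the members other than Cpox not called in each TT-seq contrast with DMSO. It changed no call of a member in RNA-seq, where same-numbered libraries correlated by -0.046 to 0.060 in the time course and -0.146 to 0.167 in the RA series and were not taken as pairs. The log2 ratio of the 4C contact lay between -0.43 and -0.22 from Cpox and between -0.40 and -0.35 from Cldnd1 with each library left out. In TT-seq, 12 to 37 counts of Cpox per depleted library limit its precision.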
